A study of Homo sapiens with 8 samples.

Results

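The replication-dependent histone genes are the many short genes that supply the bulk of the core histones H2A, H2B, H3 and H4 and of the linker histone H1. They were taken here by gene symbol, as H1-1 to H1-5 and every gene whose symbol starts with H2AC, H2BC, H3C or H4C followed by a digit. This gave 69 of the 20719 genes listed, with 5 H1, 17 H2A, 19 H2B, 13 H3 and 15 H4 genes. Of these, 54 lie on chromosome 6 and 13 on chromosome 1. H4C16 lies on chromosome 12 and H2BC12L on chromosome 21.

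The measurements are ribosome footprints, the fragments of mRNA that translating ribosomes protect, in G401 cells, a rhabdoid kidney tumor line that lacks the chromatin remodeler subunit SMARCB1. All cells carry a Tet-On transgene, which is switched on by doxycycline (Dox) and encodes SMARCB1 in one line and GFP in the other. The 4 groups are SMARCB1 DMSO, SMARCB1 Dox, GFP DMSO and GFP Dox, each treated for 12 h with 0.1 µg/ml Dox or with DMSO, and each group has 2 libraries. Every library pools several culture plates. Whether a line is a single clone is not given in the sources used here, so the transgene and any other difference between the lines cannot be told apart. A library held between 5924443 and 14000039 counts on genes. Entries set aside because they aligned to several places were 25.6% to 39.7% of the total in 7 libraries, but 56.4% in GFP Dox replicate 1. SMARCB1 had 2553 and 1750 counts in SMARCB1 Dox and 0 in each of the other 6 libraries. Values are given as CPM, the counts relative to a library total scaled by edgeR's TMM method, and levels of different genes are compared only as RPKM, which is CPM per kilobase of coding sequence.

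Replication-dependent histone genes are transcribed mainly in S phase, when new DNA has to be packed into nucleosomes. Most have no intron, and their mRNAs end in a conserved stem-loop instead of a poly(A) tail. The stem-loop is bound by SLBP, which takes part in the processing, translation and decay of these mRNAs. Many copies of a core histone class encode the same or nearly the same protein, whereas the 5 H1 genes encode 5 distinct ones. Such likeness matters for short footprints, because a footprint that fits several copies cannot be assigned to any of them.

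The stem-loop is shown because the rule that chose the genes did not use it. In the 100 bases after the stop codon, a stem of 6 base pairs that starts with GG and encloses a loop of 4 bases was found in 66 of 69 histone genes (95.7%) and in 56 of 20338 other genes (0.275%). It began 23 to 68 bases after the stop codon, with a median of 36. It was not found in H2AC11, H2AC15 and H2BC12L, 3 genes named after their values were seen. The 4 commonest forms are printed 5′ to 3′ as DNA of the hg38 genome, with the stem in capitals and the loop in lower case, and they differ by 1 base pair in the stem and in the last base of the loop.
found in 40 genes: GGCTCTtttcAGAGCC
found in 10 genes: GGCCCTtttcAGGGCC
found in 8 genes, with H1-1 at chr6:26017037-26017052 on the minus strand among them: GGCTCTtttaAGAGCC
found in 4 genes: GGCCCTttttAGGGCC

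The H4 genes show most plainly how the copies relate. Of the 15 H4 genes, 14 encode the same protein and H4C7 does not, but the 15 genes have 13 distinct coding sequences. The first 60 coding bases of 6 copies are shown because 4 of them received no counts and the other pair led the class. Bases that differ from H4C14 are in capitals.
H4C14, chr1:149832685-149832744, plus strand: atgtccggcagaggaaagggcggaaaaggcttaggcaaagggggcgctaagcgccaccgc
H4C15, chr1:149861072-149861131, minus strand: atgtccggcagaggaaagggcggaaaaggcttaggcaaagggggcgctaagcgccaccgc
H4C11, chr6:27824125-27824184, plus strand: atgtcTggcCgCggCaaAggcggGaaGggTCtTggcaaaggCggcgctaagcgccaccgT
H4C12, chr6:27831468-27831527, minus strand: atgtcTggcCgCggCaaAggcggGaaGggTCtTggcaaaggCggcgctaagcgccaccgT
H4C2, chr6:26027193-26027252, minus strand: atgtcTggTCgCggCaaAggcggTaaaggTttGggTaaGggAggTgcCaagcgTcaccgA
H4C8, chr6:26285440-26285499, minus strand: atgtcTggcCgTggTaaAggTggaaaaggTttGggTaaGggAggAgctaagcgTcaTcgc
H4C14 and H4C15 have the same coding sequence, and so do H4C11 and H4C12. H4C2 differs from H4C14 at 58 of 309 coding bases and H4C8 at 52, without a change in the protein.

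To see which copies lose reads to non-unique alignment, every window of 30 bases inside each coding sequence was searched in the hg38 genome on both strands. Over all 69 genes, 70.0% of the windows had exactly 1 place in the genome. The median share of unique windows was 99.0% for H1, 83.4% for H2A, 61.6% for H2B, 91.8% for H3 and 96.8% for H4 genes. H2B was thus the class with the lowest share. With windows of 25 and 35 bases the share over all genes was 64.9% and 73.3%. The footprint lengths and the aligner's limits on mismatches are not given in the sources used here, so the shares describe the sequences and not the reads.

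There were 9 genes without any unique window, and all of them had 0 counts in all 8 libraries. They are the identical pairs H2AC18 and H2AC19, H3C14 and H3C15, H4C11 and H4C12, and H4C14 and H4C15, and H2BC12L, whose 349 windows also all occur in the gene ENSG00000274559. The deposited counts hold uniquely aligned reads only, so a footprint inside these coding sequences had no gene to be counted on, and their 0 is no measure of their translation.

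Other genes were at or near 0 although their sequence is distinct. H2AC1 and H4C7 had 0 counts in all libraries with 100% and 96.2% unique windows, H4C13 had 1 count with 96.8%, and H2BC1 had 3 counts, all in 1 library, with 100%. H2AC1 and H2BC1 are known as testis-specific histone genes. H2AC7 had 33 counts with 86.1% unique windows, but 356 of its 361 windows (98.6%) lie inside the coding sequence of ENSG00000282988 on the same strand, where the counting mode cannot choose between both genes. ENSG00000282988 itself had 0 to 14 counts per library. H3C4 shares 77 of its 379 windows (20.3%) with the same gene, so its counts are uncertain too. H2AC1, H4C7, H4C13, H2BC1 and H2AC7 were named after their values were seen.

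**Figure D1:**
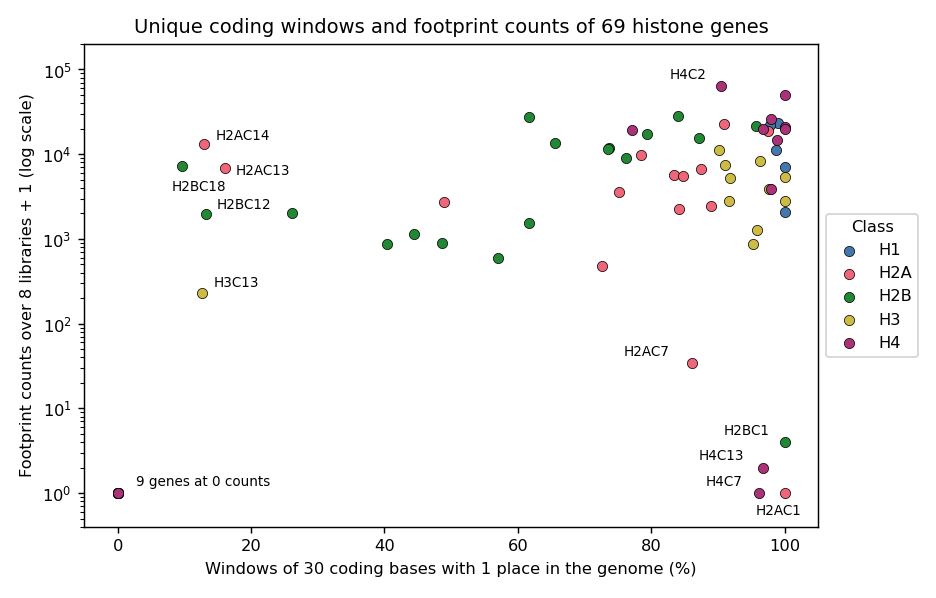
Each point is 1 of the 69 histone genes, with the percent of its 30-base coding windows that have 1 place in the genome on the x axis and its footprint counts summed over 8 libraries, plus 1, on a log y axis. The 9 genes without a unique window sit at 0 counts in the lower left corner, H2AC14 had 13277 counts with 13% unique windows, and H2AC1, H4C7, H4C13 and H2BC1 lie at the bottom right.

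A low share of unique windows did not always go with few counts. H2AC13 and H2AC14 share 303 windows with each other and keep 16.1% and 13% unique ones, yet they had 6933 and 13277 counts. Of the 46 unique windows of H2AC14, 15 start in the first part and 31 in the last part of the coding sequence, when it is cut into 3 equal parts. H2BC18, with 9.7% unique windows, had 7352 counts, and H2BC12, with 13.2%, had 1947. H3C13, with 12.7%, had 231. The position of footprints inside a gene cannot be read from counts per gene, and which of their windows these counts came from was not tested. The counts of these genes are uncertain, and H2AC13, H2BC12, H2BC18 and H3C13 were chosen after their values were seen.

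The footprints on all histone genes together made up 0.623% to 0.996% of the counts on genes. Their summed level was 6157 and 10630 CPM in SMARCB1 DMSO, 8570 and 8899 in SMARCB1 Dox, 7856 and 6636 in GFP DMSO, and 9507 and 6868 in GFP Dox. The lowest and the highest library were both SMARCB1 DMSO, and every other library lay between them. The means were 8395 ± 3165 CPM (SD, n = 2) in SMARCB1 DMSO, 8734 ± 233 in SMARCB1 Dox, 7246 ± 863 in GFP DMSO and 8187 ± 1866 in GFP Dox. The ratio of Dox to DMSO was 1.04 with inducible SMARCB1 and 1.13 with inducible GFP, and in both lines the groups overlapped. On the log2 scale the ratio of the SMARCB1 line, 0.06, was -0.28 without SMARCB1 DMSO replicate 1 and 0.50 without SMARCB1 DMSO replicate 2, and that of the GFP line, 0.18, was -0.08 without GFP Dox replicate 1. With library size as the only scaling these log2 ratios were 0.18 and 0.07, in the opposite order. In bulk libraries, the share of cells in S phase and the histone footprints per S-phase cell cannot be told apart.

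Per kilobase, H4 was the highest class and H1 the lowest. The RPKM summed over the genes of a class was 10080 ± 2820 for H4 (SD, n = 8 libraries), 5862 ± 794 for H2B, 3323 ± 686 for H2A, 1577 ± 299 for H3 and 1296 ± 197 for H1. H4 was 4.27 to 8.66 times as high as H3 per kilobase in single libraries, and H2B was 1.46 to 2.3 times as high as H2A. The nucleosome holds equal numbers of each core histone. Dividing each gene's CPM by its unique windows instead of its coding length left H4 at 4.21 to 8.79 times H3, but it took away the lead of H4 over H2B. H4 was 1.35 to 2.21 times H2B per kilobase and 0.796 to 1.33 times H2B per unique window, with H2B the higher class in 4 of the 8 libraries. H2B stood at 1.06 to 1.78 times H2A on this scale. A few genes with uncertain counts carry these values, since H2AC14 and H2AC13 gave 3779 and 1523 of the 8638 CPM per 1000 unique windows of the H2A class, and H2BC18 gave 2774 of the 11580 of the H2B class. The genes without a unique window add nothing to these sums, which holds for 4 of 15 H4, 2 of 13 H3, 2 of 17 H2A and 1 of 19 H2B genes.

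**Figure D2:**
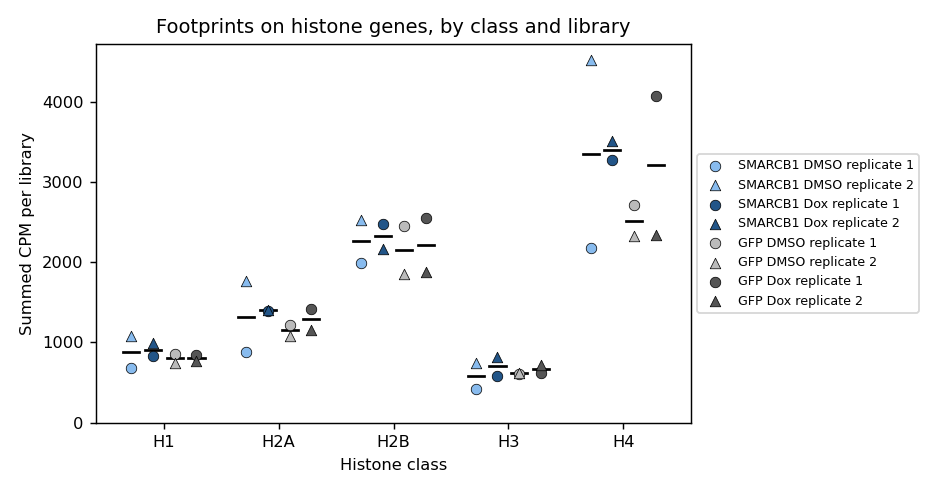
Points give the CPM summed over the genes of each histone class in each library, with circles for replicate 1, triangles for replicate 2 and black bars for the mean of the 2 libraries of a group. H4 spreads from 2182 to 4513 CPM, both of them SMARCB1 DMSO libraries, and H1 from 685.5 to 1080.

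The H4 class was led by 2 genes. With CPM first averaged over the 8 libraries, H4C2 held 26.68% and H4C8 20.97% of the class sum. H4C2 had 609 and 1316 CPM in SMARCB1 DMSO, 783 and 840 in SMARCB1 Dox, 774 and 603 in GFP DMSO, and 1167 and 559 in GFP Dox. H4C8 had 528 and 957 CPM in SMARCB1 DMSO, 795 and 618 in SMARCB1 Dox, 601 and 448 in GFP DMSO, and 838 and 441 in GFP Dox. In both genes the libraries of SMARCB1 DMSO, and those of GFP Dox, lay further apart than the means of any 2 groups. H4C5 followed, with 204 and 440 CPM in SMARCB1 DMSO, 304 and 391 in SMARCB1 Dox, 306 and 284 in GFP DMSO, and 484 and 295 in GFP Dox. Mean RPKM was 2690 for H4C2, 2114 for H4C8 and 1095 for H4C5, with SDs of 890, 616 and 298 over the 8 libraries. H4C16, the only member on chromosome 12, was the lowest of the 9 H4 genes tested, at 161 RPKM.

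Among the H2B genes, H2BC14 and H2BC5 were at nearly the same level, 974 ± 220 and 971 ± 278 RPKM (SD, n = 8), and H2BC8 at 762 ± 206. H2BC14 had 332 and 416 CPM in SMARCB1 DMSO, 371 and 293 in SMARCB1 Dox, 405 and 296 in GFP DMSO, and 534 and 297 in GFP Dox. H2BC5 had 314 and 418 CPM in SMARCB1 DMSO, 422 and 342 in SMARCB1 Dox, 340 and 249 in GFP DMSO, and 579 and 274 in GFP Dox. For each of these genes GFP Dox replicate 1 was the highest library and its own replicate one of the lower ones. H2BC8 showed the same order, with 248 and 334 CPM in SMARCB1 DMSO, 290 and 275 in SMARCB1 Dox, 289 and 208 in GFP DMSO, and 450 and 211 in GFP Dox.

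Among the H2A genes, H2AC6 (757 ± 229 RPKM), H2AC8 (604 ± 81.8) and H2AC14 (453 ± 168) led per kilobase. Per 1000 unique windows the order was different, with H2AC14 at 3779 and H2AC13 at 1523 CPM above H2AC6 at 900.5 and H2AC8 at 669. H2AC6 had 204 and 412 CPM in SMARCB1 DMSO, 278 and 313 in SMARCB1 Dox, 269 and 222 in GFP DMSO, and 444 and 223 in GFP Dox. H2AC14 had 108 and 236 CPM in SMARCB1 DMSO, 217 and 154 in SMARCB1 Dox, 159 and 107 in GFP DMSO, and 283 and 127 in GFP Dox. In both genes SMARCB1 DMSO replicate 2 was more than 2 times as high as replicate 1. H2AC8 was steadier, with 177 and 271 CPM in SMARCB1 DMSO, 255.9 and 236.7 in SMARCB1 Dox, 264 and 239 in GFP DMSO, and 201 and 238 in GFP Dox.

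The H3 genes were lower. H3C4 had 105 and 144 CPM in SMARCB1 DMSO, 145 and 182 in SMARCB1 Dox, 148 and 128 in GFP DMSO, and 174 and 155 in GFP Dox. H3C10 had 56.4 and 163 CPM in SMARCB1 DMSO, 85.3 and 129 in SMARCB1 Dox, 93.5 and 96.8 in GFP DMSO, and 107 and 117 in GFP Dox. H3C2 had 62.1 and 107 CPM in SMARCB1 DMSO, 79.2 and 143 in SMARCB1 Dox, 90.9 and 116 in GFP DMSO, and 64.2 and 116 in GFP Dox. All 3 were lowest in SMARCB1 DMSO replicate 1. Their mean RPKM was 362 ± 59.8, 260 ± 77.5 and 238 ± 69.1 (SD, n = 8).

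The linker histone class held 5 counted genes, all nearly free of shared windows. H1-2 (472 ± 74.3 RPKM) and H1-5 (416 ± 54.6) led, followed by H1-4 (225 ± 51.6). H1-2 had 260 and 403 CPM in SMARCB1 DMSO, 272 and 297 in SMARCB1 Dox, 334 and 273 in GFP DMSO, and 301 and 272 in GFP Dox. H1-5 had 211 and 337 CPM in SMARCB1 DMSO, 276 and 312 in SMARCB1 Dox, 297 and 266 in GFP DMSO, and 273 and 282 in GFP Dox. H1-4 had 118 and 192 CPM in SMARCB1 DMSO, 140 and 210 in SMARCB1 Dox, 129 and 127 in GFP DMSO, and 131 and 134 in GFP Dox. H1-3 ranged from 62.4 to 131 CPM. In each of these 4 genes the libraries of both lines overlapped. H1-1, the lowest of the class at 43.2 RPKM, is described with the comparison of the lines.

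The libraries of SMARCB1 DMSO differed from each other in nearly every histone gene. Of the 55 histone genes that passed the filter on low counts, 54 were higher in replicate 2 than in replicate 1, with a median log2 ratio of 0.70. The median was 1.11 for H4, 1.00 for H2A, 0.81 for H3, 0.68 for H1 and 0.32 for H2B genes. Over all genes tested, 50.2% were higher in replicate 2, with a median of 0.00. Of 19 S-phase genes 14 were higher in replicate 2 (median 0.32), as were 8 of 10 replication-independent histone genes (median 0.51). For the S-phase genes this number was 11 in SMARCB1 Dox (median 0.04), 6 in GFP DMSO (-0.05) and 7 in GFP Dox (-0.39). The replication-independent genes were mostly higher in replicate 2 of every group, with 8 in SMARCB1 Dox (median 0.44), 7 in GFP DMSO (0.24) and 8 in GFP Dox (0.94). In SMARCB1 Dox 41 of 55 histone genes were higher in replicate 2 (median 0.20), and in GFP DMSO 23 (median -0.10). In GFP Dox, H4 genes were lower in replicate 2 (8 of 9 genes, median -0.77) while the median of the H3 genes was 0.85. What set these libraries apart was not tested.

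The first comparison asked whether histone footprints differed after 12 h of SMARCB1 expression, and no histone gene passed the test. Of the 55 histone genes tested, 0 were called in SMARCB1 Dox against SMARCB1 DMSO, at an adjusted p below 0.05 from edgeR's quasi-likelihood test and a fold change above 2, where 0.018% of all 11097 genes were called. DESeq2 also called 0, and 1 histone gene had an unadjusted p below 0.05, as had 552 of all 11097 genes. The log2 fold changes of the 55 genes had a median of 0.13 and ranged from -0.59 to 0.81, against a median of -0.02 over all genes. Above 0 were 42 of the 55 genes, and 5241 of all 11097. By class the medians were 0.17 for H1, 0.12 for H2A, 0.11 for H2B, 0.24 for H3 and 0.17 for H4. The median over the 55 genes was -0.14 without SMARCB1 DMSO replicate 1 and 0.57 without SMARCB1 DMSO replicate 2, so its direction rested on single libraries.

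The smallest p belonged to H2AC25, an H2A gene on chromosome 1 that lies apart from the large clusters. H2AC25 had 25.02 and 39.4 CPM in SMARCB1 DMSO, 48.0 and 55.3 in SMARCB1 Dox, 21.7 and 23.8 in GFP DMSO, and 14.9 and 24.3 in GFP Dox. Its SMARCB1 Dox libraries were the 2 highest of the 8. The log2 fold change in the SMARCB1 line was 0.67 (SE 0.30, adjusted p = 0.987, edgeR), which does not pass the test.

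In the GFP line, 0 of the 55 histone genes were called in GFP Dox against GFP DMSO, where 0% of all genes were called. DESeq2 called 0 here too, and 1 histone gene had an unadjusted p below 0.05, as had 240 of all 11097 genes. The median log2 fold change was 0.04, with 29 of the 55 genes above 0, and 5865 of all 11097 genes. The 9 H4 genes ranged from 0.07 to 0.57. The smallest p belonged to H2BC3, with 224 and 237 CPM in SMARCB1 DMSO, 281 and 170 in SMARCB1 Dox, 245 and 159 in GFP DMSO, and 116 and 138 in GFP Dox. Both GFP Dox libraries were the lowest of the 8, and the log2 fold change was -0.67 (SE 0.29, adjusted p = 1, edgeR). The summed CPM of H3 genes was 610 and 620 in GFP DMSO and 620 and 723 in GFP Dox, the only class and Dox comparison without overlap, by less than 1 CPM.

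The difference between the Dox effects of both lines was tested directly. Of the 55 histone genes 0 were called, where 0% of all genes were called, and DESeq2 called 0. An unadjusted p below 0.05 was found for 0 histone genes and for 443 of all 11097 genes. The smallest p was again that of H2AC25, with a log2 difference of 0.89 (SE 0.43, adjusted p = 0.981, edgeR).

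**Figure D3:**
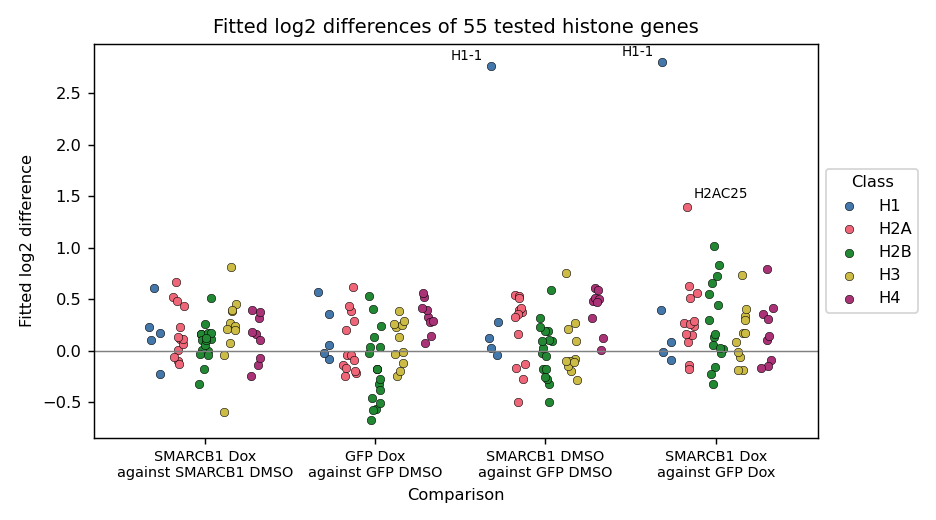
Each point is the fitted log2 difference of 1 of the 55 tested histone genes in 1 of 4 comparisons, coloured by class, with a line at 0. In the Dox comparisons the points lie between -0.67 and 0.81, and in the comparisons of the lines H1-1 stands at 2.77 and 2.81 and H2AC25 at 1.40 under Dox; the comparisons of the lines share libraries with the Dox comparisons.

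Between the lines, the linker histone gene H1-1 differed most. H1-1 (chr6:26017032-26017787, minus strand, hg38) encodes the H1 subtype H1.1, known for its restricted expression among tissues. H1-1 had 208 and 543 counts in SMARCB1 DMSO and 657 and 397 in SMARCB1 Dox, against 56 and 96 in GFP DMSO and 71 and 35 in GFP Dox. In CPM this was 34.7 and 42.3, 54.97 and 62.9, 4.61 and 6.67, and 11.8 and 5.18. All 4 libraries of the SMARCB1 line lay above all 4 of the GFP line.

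Under DMSO, 1 of the 55 histone genes was called between the lines, where 4.97% of all genes were called, and this was H1-1, higher in SMARCB1 DMSO than in GFP DMSO with a log2 fold change of 2.77 (SE 0.36, adjusted p = 0.000176, edgeR). Under Dox, 2 of the 55 were called, where 6.08% of all genes were called, and both were higher in SMARCB1 Dox than in GFP Dox. These were H1-1, with a log2 fold change of 2.81 (SE 0.37, adjusted p = 0.000196, edgeR), and H2AC25, with 1.40 (SE 0.31, adjusted p = 0.0133, edgeR). The share of histone genes called was below that of all genes in both comparisons. The comparisons under DMSO and under Dox use separate libraries. SMARCB1 had 0 counts in both groups compared under DMSO. Dox itself left no called change in H1-1, at a log2 fold change of 0.61 (SE 0.33, adjusted p = 1, edgeR) for the SMARCB1 line and 0.57 for the GFP line (SE 0.37, adjusted p = 1, edgeR). H1-1 was called in both comparisons under each alternative fit and with each library left out. With 1 library left out, its log2 fold change under Dox ranged from 2.33 to 3.50. The lower value came without GFP Dox replicate 2 and the higher without GFP Dox replicate 1, the highest library of the GFP line.

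Within the H1 class, H1-1 took 3.92% to 6.6% of the H1 counts in the 4 libraries of the SMARCB1 line and 0.537% to 1.39% in those of the GFP line. The 95% binomial intervals (exact, counting error only) nearest to each other were 3.6% to 4.25% in SMARCB1 DMSO replicate 2 and 1.08% to 1.75% in GFP Dox replicate 1. The other 4 H1 genes had log2 differences between the lines from -0.04 to 0.28 under DMSO and from -0.09 to 0.40 under Dox, none of which passed the test.

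**Figure D4:**
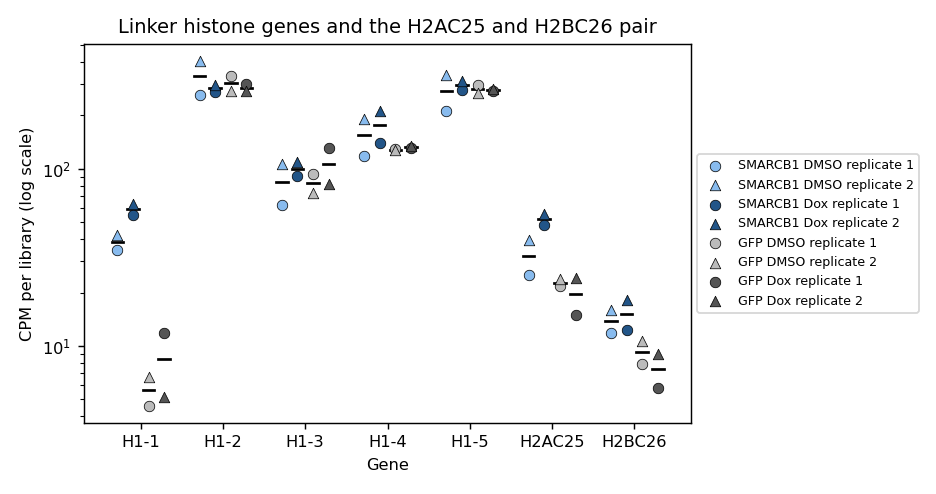
CPM per library on a log axis for the 5 linker histone genes and for H2AC25 and H2BC26, with circles for replicate 1, triangles for replicate 2 and black bars for the mean of 2 libraries. H1-1 lies at 34.7 to 62.9 CPM in the SMARCB1 line and 4.61 to 11.8 in the GFP line, while H1-2 and H1-5 overlap between the lines.

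Leaving out SMARCB1 Dox replicate 1, GFP Dox replicate 1 or SMARCB1 Dox replicate 2 lost the call for H2AC25. Its log2 fold change in these fits was 1.49, 1.09 and 1.30. Without GFP Dox replicate 2 it was 1.79, with H2BC9 at 1.05 and H2BC21 at 1.00. Each such fit leaves 1 library in a group, so a lost call does not show that the difference came from a single library. Under DMSO, H2AC25 had a log2 difference of 0.51 between the lines (SE 0.30, adjusted p = 0.537, edgeR). Without SMARCB1 DMSO replicate 1, H2AC11 and H4C16 had log2 differences of 1.11 and 1.14 under DMSO.

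H2AC25 starts next to an H2B gene on the opposite strand, H2BC26, which was chosen after its values were seen. H2BC26 had 11.8 and 15.97 CPM in SMARCB1 DMSO, 12.3 and 18.1 in SMARCB1 Dox, 7.90 and 10.6 in GFP DMSO, and 5.79 and 9.02 in GFP Dox. All 4 libraries of the SMARCB1 line were above those of the GFP line, but the log2 difference under Dox, 1.02 (SE 0.38, adjusted p = 0.150, edgeR), did not pass the test, and only 40.4% of its windows are unique. Histone H2A and H2B genes often lie head to head in such pairs. The 229 bases between both starts are shown because the pair shares them. The pentamer CCAAT, or ATTGG, which is CCAAT on the other strand, is in capitals.
between H2AC25 and H2BC26, chr1:228457874-228458102, plus strand of hg38: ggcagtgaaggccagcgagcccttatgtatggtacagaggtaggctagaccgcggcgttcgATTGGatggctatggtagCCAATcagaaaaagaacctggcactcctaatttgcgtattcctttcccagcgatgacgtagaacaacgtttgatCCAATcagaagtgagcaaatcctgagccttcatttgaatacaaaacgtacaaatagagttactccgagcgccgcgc
before H1-1, chr6:26017788-26018037, minus strand, with CCAAT and TATAAA in capitals: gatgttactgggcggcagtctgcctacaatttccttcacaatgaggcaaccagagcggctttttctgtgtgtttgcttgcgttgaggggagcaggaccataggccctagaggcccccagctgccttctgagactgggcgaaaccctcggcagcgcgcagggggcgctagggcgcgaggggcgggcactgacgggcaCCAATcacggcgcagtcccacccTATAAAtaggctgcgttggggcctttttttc

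Histone promoters are known for such short elements, and 3 of them were counted in the 300-base promoter windows of RefSeq (GRCh38.p14), which 63 of the 69 genes have. CCAAT, on either strand, was in 84.1% of the histone promoters and 35.7% of all 27305 promoters, and it was in every H1, H2A, H2B and H3 promoter matched but in 3 of 13 H4 promoters. TATAAA, on the gene's strand, was in 58.7% against 7.71%. The octamer ATTTGCAT, on either strand, was in 41.3% against 1.8%, with 14 of 18 H2B, 11 of 16 H2A, 1 of 11 H3, 0 of 13 H4 and 0 of 5 H1 promoters. The stretch between H2AC25 and H2BC26 holds CCAAT 3 times and neither of the other words. A match is a description of the letters and not of a bound factor.

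Genes that process histone mRNA, carry histones or run S phase were taken from lists of known members and counted in the same fit. Of the 22 histone mRNA processing genes tested, 0 were called in any comparison. ERI1, an exonuclease that acts on histone mRNA ends, came nearest, with 101 and 72.6 CPM in SMARCB1 DMSO and 175 and 149 in GFP DMSO (log2 fold change -0.90, SE 0.24, adjusted p = 0.0474, edgeR), short of a fold change of 2. Of 24 histone chaperone genes tested, 0 were called in any comparison. Their median log2 fold change under Dox was -0.20 with inducible SMARCB1 and 0.23 with inducible GFP, against -0.02 and 0.02 over all genes. Single libraries of a group differed by more than this. The median log2 ratio of replicate 2 to replicate 1 for these genes was 0.32 in SMARCB1 DMSO and -0.53 in GFP Dox. It was -0.002 in SMARCB1 Dox and -0.09 in GFP DMSO. Whether the Dox medians exceed this spread was not tested.

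Of 19 S-phase genes tested, 1 was called, in SMARCB1 Dox against GFP Dox, where 6.08% of all genes were called. This was CCNE2, which encodes cyclin E2. CCNE2 had 7.84 and 9.27 CPM in SMARCB1 DMSO, 17.1 and 18.1 in SMARCB1 Dox, 12.9 and 12.6 in GFP DMSO, and 4.96 and 7.99 in GFP Dox. It was higher in SMARCB1 Dox than in GFP Dox, with a log2 fold change of 1.43 (SE 0.36, adjusted p = 0.0246, edgeR). It also had the smallest p of these lists within each line, at 1.03 (SE 0.34, adjusted p = 0.666, edgeR) in the line with SMARCB1 and -0.97 in the line with GFP (SE 0.35, adjusted p = 1, edgeR), and for the difference between the Dox effects, 1.999 (SE 0.49, adjusted p = 0.977, edgeR). Without SMARCB1 Dox replicate 1, GFP Dox replicate 1 or SMARCB1 Dox replicate 2 the call was lost. The log2 fold changes in these fits, each with 1 library in a group, were 1.47, 1.13 and 1.40.

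The genes listed as replication-independent histones, whose mRNAs are mostly polyadenylated and made outside S phase too, are given for comparison. MACROH2A1 was at 270 RPKM on average, H3-3B at 154, H1-10 at 114.5 and H2AZ1 at 67.6. The leading genes H4C2, H2BC14 and H3C4 were at 2690, 974 and 362. Among the other H3 genes, H3C12 at 175 and H3C7 at 168 were above H3-3B, and H3C8 at 121 and H3C13 at 6.89 below it. H1-1, the lowest H1 gene at 43.2, was below H1-10. H3-3A was listed at 0 in all libraries, and the windows of the replication-independent histone genes were not examined here. Of the 10 tested, 0 were called in any comparison.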

How the data were processed

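Ribosome-protected fragments were prepared with the RiboLace kit, and the authors aligned them to hg38 with STAR and counted reads with HTSeq (intersection-strict, coding sequences of GENCODE 42). The deposited values are raw counts per gene. Tool versions, adapter and ribosomal RNA handling and the strand option are not given in the sources used here, and RNA-seq was not analysed here. Gene symbols, coding sequences and positions come from GENCODE 44, by gene ID (311 IDs unmatched). HTSeq's totals of reads without a gene were left out. In each library 1.29% to 1.74% of the uniquely aligned reads were ambiguous between genes.

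Genes passing edgeR's filterByExpr (11097, with 55 of the 69 histone genes) were scaled by TMM and tested in 1 quasi-likelihood fit of the 8 libraries, and p-values were adjusted by Benjamini-Hochberg over all genes kept. Standard errors were calculated as the absolute log2 fold change divided by the root of the test's F. The experiments were done in duplicate, but whether the libraries of a group come from separately grown cultures is not given in the sources used here, so p-values measure the spread between these libraries, which may be technical. They differed by more than sampling noise (chi-square per degree of freedom 14.7 to 44.8). Intervals cover counting error only. The tests were checked on simulated counts. Tools were R 4.3.3, edgeR 4.0.16, DESeq2 1.42.0, Python 3.11.15, pysam 0.24.0 and scipy 1.17.1.

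Unique windows are exact matches over 194 contigs of hg38, alternate haplotypes left out. The 14 histone genes not tested are H2AC1, H2AC7, H2AC18, H2AC19, H2BC1, H2BC12L, H3C14, H3C15, H4C7 and H4C11 to H4C15. Named genes are the 3 with the highest mean RPKM in each class, those called, the smallest p of each comparison and those with no unique window. The members, the other gene lists and this rule were chosen with earlier results of these data known. 1 result among the replication-independent histone genes is not reported here.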

Additional observations from a re-analysis of the deposited data

How the results depend on the processing

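The number of histone genes called was the same in every comparison with DESeq2's size factors, with library size only, with DESeq2's Wald test, with either filter on low counts, with only the groups compared and without a fold-change minimum on the reported fit. A fit of only the groups compared could not be made for the difference between the Dox effects, which needs all 4 groups. Leaving out 1 library gave 0 calls in both Dox comparisons and in their difference, 1 to 3 between the lines under DMSO and 1 to 4 under Dox. The log2 ratio of the summed CPM ranged from -0.284 to 0.505 for SMARCB1 Dox against SMARCB1 DMSO, from -0.077 to 0.392 for GFP Dox against GFP DMSO, from -0.235 to 0.553 for the lines under DMSO and from -0.122 to 0.347 under Dox, and it changed sign in each. Windows of 25 and 35 bases gave 64.9% and 73.3% unique windows in place of 70.0%. With library size only, the all-gene median log2 difference went from -0.02 to 0.09 for SMARCB1 Dox against SMARCB1 DMSO. It went from -0.03 to 0.16 for the difference and from -0.01 to 0.11 between the lines under Dox. The histone medians went, in the same order, from 0.13 to 0.25, from 0.10 to 0.32 and from 0.17 to 0.30. For GFP Dox against GFP DMSO the all-gene median went from 0.02 to -0.06 and the histone median from 0.04 to -0.04. Between the lines under DMSO these medians went from 0.02 to -0.05 and from 0.13 to 0.04. CCNE2 also lost its call with only the groups compared (adjusted p = 0.0871, edgeR).

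The labels give the groups the same replicate numbers. With the replicate number as a block, the calls of histone genes numbered 0, 0, 0, 1 and 2 in the 5 comparisons, as without it. Over all genes the calls went from 2 to 13 for SMARCB1 Dox against SMARCB1 DMSO. They went from 552 to 603 between the lines under DMSO and from 675 to 734 under Dox, and stayed at 0 in the other comparisons. The deviations of same-numbered libraries correlated at 0.047 to 0.363 over pairs of groups for all genes, above 0.1 in 5 of 6 pairs, and at -0.107 to 0.773 for the histone genes, also above 0.1 in 5 of 6. Since neither exceeded 0.1 in every pair, the reported fit did not pair the libraries by number. These values do not show that the libraries are unpaired.

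The histone sum differed 1.73-fold between the libraries of SMARCB1 DMSO.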
